A study of Mus musculus with 12 samples.

Results

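Solute carrier genes were followed through a Mirlet7d pull-down and a Mirlet7d ChIRP-seq experiment in mouse lung epithelial cells. Members were all genes whose symbol starts with Slc and a digit, or with Slco, in any of 3 lists: mRNAs enriched in the pull-down, noncoding RNAs (ncRNAs) at gene promoters enriched in the pull-down, and genes nearest to a ChIRP-seq peak. The rule found 122 genes among the 5714 genes named in at least 1 list. Of these, 44 were on the mRNA list only, 17 on the ncRNA list only and 51 on the ChIRP-seq list only, and 10 were on more than 1 list. Not every symbol stands for a carrier: Slc13a2os is an antisense transcript, Slc22a13b-ps a pseudogene and Slc9a3r1 a scaffold protein that binds a sodium-proton exchanger.

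All libraries came from MLE-12, an established line from a mouse lung tumour driven by a viral T antigen under the surfactant protein C promoter. For the pull-down, cells were transfected with 25 nM biotinylated Mirlet7d, a custom LNA (locked nucleic acid) oligonucleotide, and harvested after 48 h, and RNA held by streptavidin beads was sequenced next to an input RNA library that had not been captured. For ChIRP-seq, which recovers the DNA attached to an RNA, chromatin was incubated for 4 h with 150 pmol of a biotinylated oligonucleotide against mature Mirlet7d, and the sample also carries a Mirlet7d gain-of-function label. The series also holds an input library for ChIRP-seq, which was not analysed here. Of the 12 samples in the series, each the only one of its group, the pull-down with its input and the ChIRP-seq capture are described here, and no capture with another microRNA was analysed. No value below therefore has a replicate error, and no entry can be separated from what beads or probes hold without Mirlet7d.

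Solute carriers are membrane proteins that move amino acids, sugars, metals, nucleotides, vitamins and ions across the plasma membrane and the membranes of mitochondria, lysosomes and the endoplasmic reticulum. Most work by coupled or facilitated transport and do not split ATP, unlike the ABC transporters and ion pumps. In the lung epithelium such carriers take part in phosphate recovery from surfactant, airway chloride secretion and amino acid uptake. Mirlet7d belongs to the let-7 family of microRNAs, which bind target RNAs mainly through the seed, bases 2 to 8 of the mature strand. Its sequence is shown because the letters of the seed were searched in promoters further on. RefSeq places the mature strand of 22 bases at chr13:48536078-48536099 on the minus strand of GRCm38.p6, and the seed is in capitals.
mmu-let-7d-5p: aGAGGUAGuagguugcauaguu

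The mRNA list held 50 solute carrier genes in 63 transcripts, the ncRNA list 24 genes in 47 transcripts, and 79 peaks had 59 solute carrier genes as their nearest gene. By current RefSeq symbols, which add Gm5868 (now Slc10a4l), 51 of 397 solute carrier genes with a curated transcript were on the mRNA list. That is 12.8% (exact 95% interval 9.72 to 16.5), against 5.74% of all 26220 curated genes. On the ncRNA list the share was 6.05% (3.91 to 8.86), against 6.16% of all genes. ChIRP-seq peaks were nearest to 14.9% (11.5 to 18.7) of the solute carrier genes and to 12.1% of all genes. The share of solute carriers was thus above the background on the mRNA list and near it on the other lists, where the intervals include the background. At a peak score of at least 40 the ChIRP-seq share was slightly below the background (12 genes, 3.02%, against 3.52%). Within 10 kb of the start it was above (7.81%, against 5.96%). The same held inside the own transcript or promoter (9.07%, against 6.29%) and without chromosomes 6, 8, 11, 16 and 19 (6.8%, against 5.51%). None of these differences was tested. A comparison set of other membrane transporters was picked by symbol (ABC family, ion pumps, aquaporins and carrier-like proteins). Its listed genes include Abce1, Abcf1, Abcf2 and Abcf3, ABC family members that are not membrane transporters. This set had shares of 11.5% (6.55 to 18.2), 9.16% (4.82 to 15.5) and 19.8% (13.4 to 27.7) on the same lists. These intervals treat genes as independent draws, and the background was not limited to genes expressed in MLE-12 cells.

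Sorted by substrate, the groups differed in their counts on the 3 lists. Amino acid carriers were the most numerous on the mRNA list, with 14 of 67 RefSeq genes (20.9%), and had 6 on the ncRNA list and 8 nearest to peaks. Nucleoside and vitamin carriers had 4 of 20 on the mRNA list (20.0%), and chloride, bicarbonate and anion carriers 5 of 31 (16.1%). Mitochondrial carriers of the Slc25 family were mostly genes nearest to peaks, with 4 of 47 on the mRNA list (8.51%), 5 on the ncRNA list (10.6%) and 16 nearest to peaks (34.0%). Sodium-proton and calcium exchangers had 1 of 23 on the mRNA list (4.35%) and 2 nearest to peaks (8.70%), of which Slc9a3r1 is the scaffold protein. The groups were compared by counts only, and no difference between groups was tested.

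**Figure D1:**
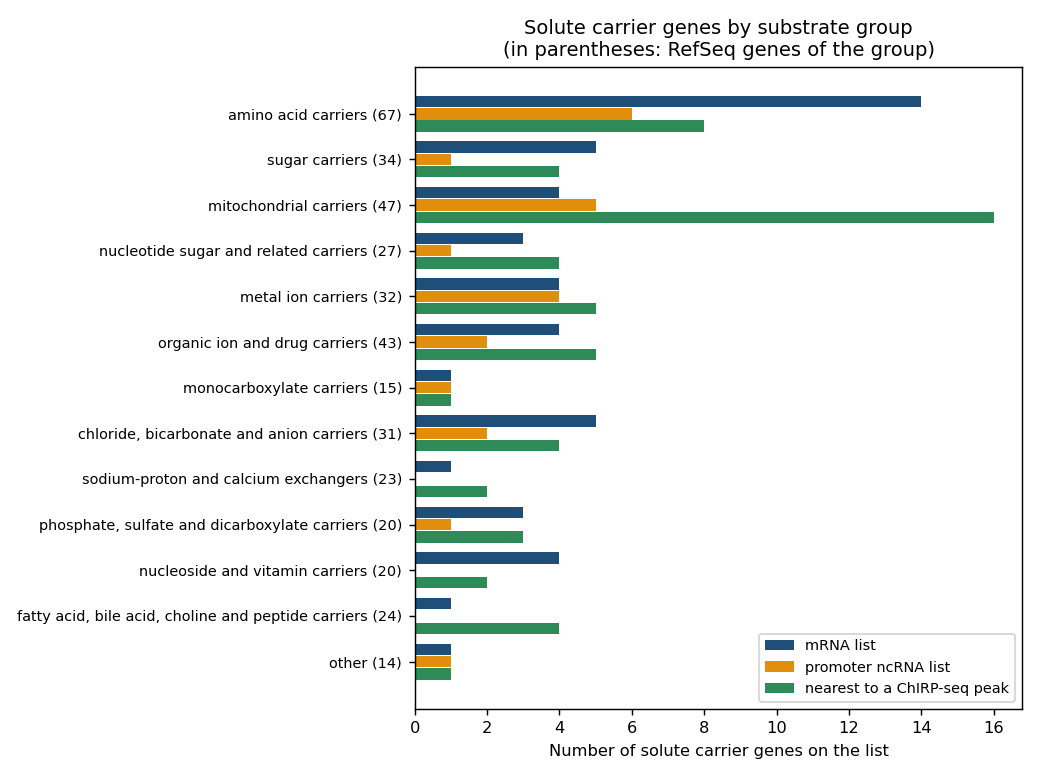
Number of solute carrier genes on each of the 3 lists (horizontal axis) by substrate group (vertical axis, with the number of RefSeq genes of the group in parentheses). Amino acid carriers have the longest bar for the mRNA list (14 genes) and mitochondrial carriers the longest for ChIRP-seq peaks (16 genes).

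In the pull-down, levels are given in RPKM (reads scaled to the transcript's span in kilobases and to a total of reads). That total differed between the mRNA and the ncRNA values of the same libraries. Fold means pull-down RPKM divided by input RPKM. Listed entries have a fold of at least 2.5, so a gene missing from a list may have been measured and not enriched, or not measured. Solute carrier mRNAs had a median fold of 5.75, against 4.93 for all 1964 listed transcripts, 20 of the 63 (31.7%) reached a fold of 10, against 26.7% of all, and 40 (63.5%) a fold of 5, against 49.6%. Their levels were low. The median input was 0.005 RPKM, against 0.014 for all listed transcripts, and the median pull-down level was 0.075 RPKM, against 0.138. The recovered read numbers (the RPKM values are whole multiples of the worth of 1 read) showed an input of 1 read for 20 of the 63 transcripts (31.7%), against 17.3% of all, and of at most 2 reads for 27 (42.9%), against 28.4%. Folds were higher where inputs were lower: the median was 16 for the 27 transcripts with at most 2 input reads and 3.70 for the 20 with at least 10. In all listed transcripts the same medians were 10.7 and 3.70. Input is the divisor of the fold and listing needs a fold of at least 2.5, so this order is partly set in advance. Of the 50 genes, 43 had a transcript whose exact 95% interval of the fold, from counting error only, lay above 1 (86.0%, against 86.3% of all listed genes), and for 25 it lay above 2.5 (50%, against 54.4%). By transcripts, 56 of 63 (88.9%) had an interval above 1, against 86.8% of all, and 32 (50.8%) above 2.5, against 54.9%. These intervals are computed on entries already chosen for a high fold, which favours them.

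**Figure D2:**
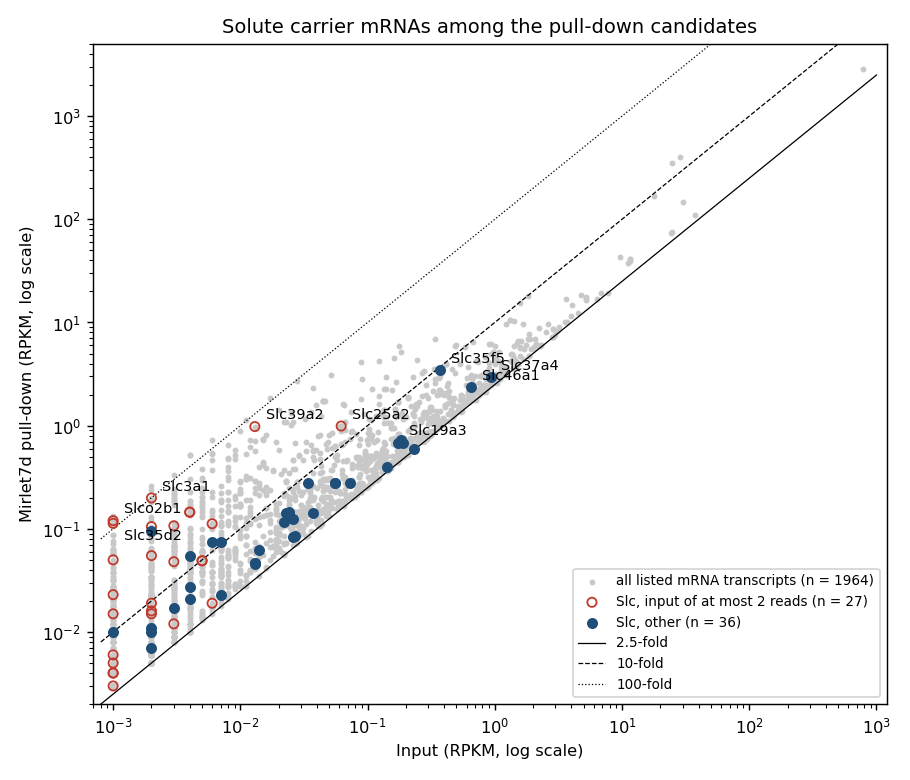
Input RPKM (horizontal, log scale) against Mirlet7d pull-down RPKM (vertical, log scale) for all 1964 listed mRNA transcripts in grey and the 63 solute carrier transcripts in colour, with lines at folds of 2.5, 10 and 100. Most carriers with an input of at most 2 reads (red, 27 transcripts) lie toward the left, with Slc39a2 (0.013 RPKM) and Slc25a2 (0.062 RPKM) farther right, and Slc35f5, Slc37a4 and Slc46a1 have the highest pull-down levels among the carriers.

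Carriers of organic ions and drugs had the highest fold. Slco2b1, an organic anion uptake transporter, was at 0.001 RPKM in the input and 0.12 in the pull-down, a fold of 120 that rests on 1 read against 188 to 189 (interval 18.9 to 4259). Its other listed transcripts, which share the locus on chr7:106806314-106859850 (mm9), had folds of 52.5 and 48. Slc22a4, a carrier of ergothioneine and carnitine, had 0.004 and 0.055 RPKM, a fold of 13.75 (interval 5.54 to 55.2). Slco5a1 reached 10 (2.60 to 132). For Slc47a2, an exporter of organic cations, the interval of the 4-fold value ran from 0.51 to 179 and so included 1. All 4 genes had at most 4 input reads.

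Among the 14 amino acid carriers, folds ran from 3.29 to 99.5 with a median of 5.67 over 17 transcripts. Slc3a1, the heavy subunit of the transporter for cystine and basic amino acids, was at 0.002 RPKM in the input and 0.199 in the pull-down (2 against 300 to 301 reads, fold 99.5, interval 23.4 to 709). Slc6a20b, an imino acid carrier, had a fold of 15 (2.22 to 583) and its close paralog Slc6a20a 5.67 (1.7 to 29.1). Slc36a2 and Slc36a3, neighbouring proton-coupled amino acid carriers, had 9.5 and 7.5, each with an input of 1 read. How reads shared by such paralogs were assigned is not given in the sources used here. Other members rested on more input reads. Slc43a1, a carrier of large neutral amino acids, had 0.023 and 0.142 RPKM (6.17, interval 3.43 to 11.8). Slc38a9, a lysosomal carrier that senses arginine for the mTORC1 kinase complex, had 0.022 and 0.117 RPKM (5.32, interval 3.77 to 7.88). Slc7a7, a light chain for basic amino acid export, had 0.026 and 0.125 RPKM (4.81, 3.17 to 7.78). Slc7a3, a cationic amino acid carrier, followed with 0.055 and 0.276 RPKM (5.02, 2.42 to 12.1). The glutamate carrier Slc1a2 had a fold of 5 (1.95 to 21.0) and the neutral amino acid carrier Slc6a15 3.29 (1.5 to 8.66). Intervals included 1 for Slc6a4, which despite its family number carries serotonin, and for Slc7a8 and Slc38a11.

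The vitamin carriers included well measured members. Slc19a3, a thiamine carrier, rested on 108 input reads, at 0.184 RPKM in the input and 0.722 in the pull-down (3.92, interval 3.20 to 4.86). Slc46a1, the proton-coupled folate carrier, had 0.651 and 2.358 RPKM (3.62, 2.92 to 4.53). Slc52a3, a riboflavin carrier, had a fold of 36.25 in its highest transcript with 1 input read (5.58 to 1300). Slc46a3, a lysosomal carrier of the same family as Slc46a1, had 9.8 (2.47 to 82.9). Slc5a6, grouped by its number with the sugar carriers although it carries biotin and pantothenate, had 0.231 and 0.597 RPKM and the lowest fold of the members on the mRNA list (2.58, 1.97 to 3.42).

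Sugar and nucleotide sugar carriers held the most abundant members. Slc35f5, a family member whose substrate is not settled, had the highest pull-down level of any solute carrier mRNA, with 0.372 RPKM in the input and 3.445 in the pull-down. Its fold of 9.26 rested on 307 to 308 reads against 5013 to 5023 and had a narrow interval (8.23 to 10.5), and it was the highest among the 20 solute carrier transcripts with at least 10 input reads. Its span is chr1:127457593-127492261 (mm9). Slc37a4, the glucose-6-phosphate carrier of the endoplasmic reticulum, had the second highest pull-down level, 2.943 RPKM against 0.928 in the input (3.17, interval 2.57 to 3.94). Slc35d2, a nucleotide sugar carrier of the Golgi, went from 0.001 to 0.113 RPKM (113, interval 15.7 to 3541, 1 input read), and Slc35b3 from 0.026 to 0.084 (3.23, 1.92 to 5.64). The glucose carrier Slc2a3 had a fold of 4.43 (1.74 to 14.4), Slc5a10 3.62 (2.03 to 6.61) and Slc45a3 2.75 (1.97 to 3.94). The 5 genes of the sugar group stayed within 2.58 to 4.43.

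Metal ion carriers were led by a zinc importer. Slc39a2 had 0.013 RPKM in the input and 0.979 in the pull-down, 1 read against 129 (fold 75.3, interval 12.9 to 2914). Slc39a4, the intestinal zinc importer, had a fold of 3.86 (1.33 to 15.1), and Slc11a1, a metal carrier of phagosomes, 0.073 and 0.276 RPKM (3.78, 2.31 to 6.46). The interval of Slc30a3, a vesicular zinc carrier, included 1.

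Of the mitochondrial carriers, Slc25a20, which exchanges carnitine and acylcarnitine, was measured best, with 0.19 and 0.678 RPKM (3.57, interval 2.89 to 4.45). Slc25a2, an ornithine carrier, had 0.062 and 0.991 RPKM (15.98, 4.20 to 134), and Slc25a43 a fold of 12.5 (4.95 to 37.8). The interval of Slc25a54 included 1.

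Ion and anion carriers had middle to high folds on few reads. Slc4a11 of the bicarbonate carrier family had 18.67 (4.75 to 151), the neuronal potassium-chloride cotransporter Slc12a5 10.71 (4.71 to 35.7), the chloride carrier Slc26a9 of airway epithelium 8 (1.61 to 448), the bicarbonate cotransporter Slc4a5 6.75 (2.85 to 20.7) and Slc26a7 3.5 (1.16 to 13.7). The sodium-proton exchanger Slc9a2 had 5.5 (1.74 to 22.9). Slc17a9, which loads vesicles with nucleotides, had 27.5 (3.75 to 896), the sulfate carrier Slc13a4 23 (3.64 to 896) and Slc17a7, which loads vesicles with glutamate, 8.21 (4.29 to 17.3). Slc16a14 of the monocarboxylate carrier family had 50 (5.98 to 1412) and the bile acid carrier Slc10a1 16 (2.83 to 695), each with 1 input read. Several of these genes, such as Slc12a5 and Slc17a7 of neurons and Slc10a1 of liver cells, are known from other tissues, and their inputs here were at most 10 reads. The interval of Slc51a, a subunit of a bile acid exporter, included 1.

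**Figure D3:**
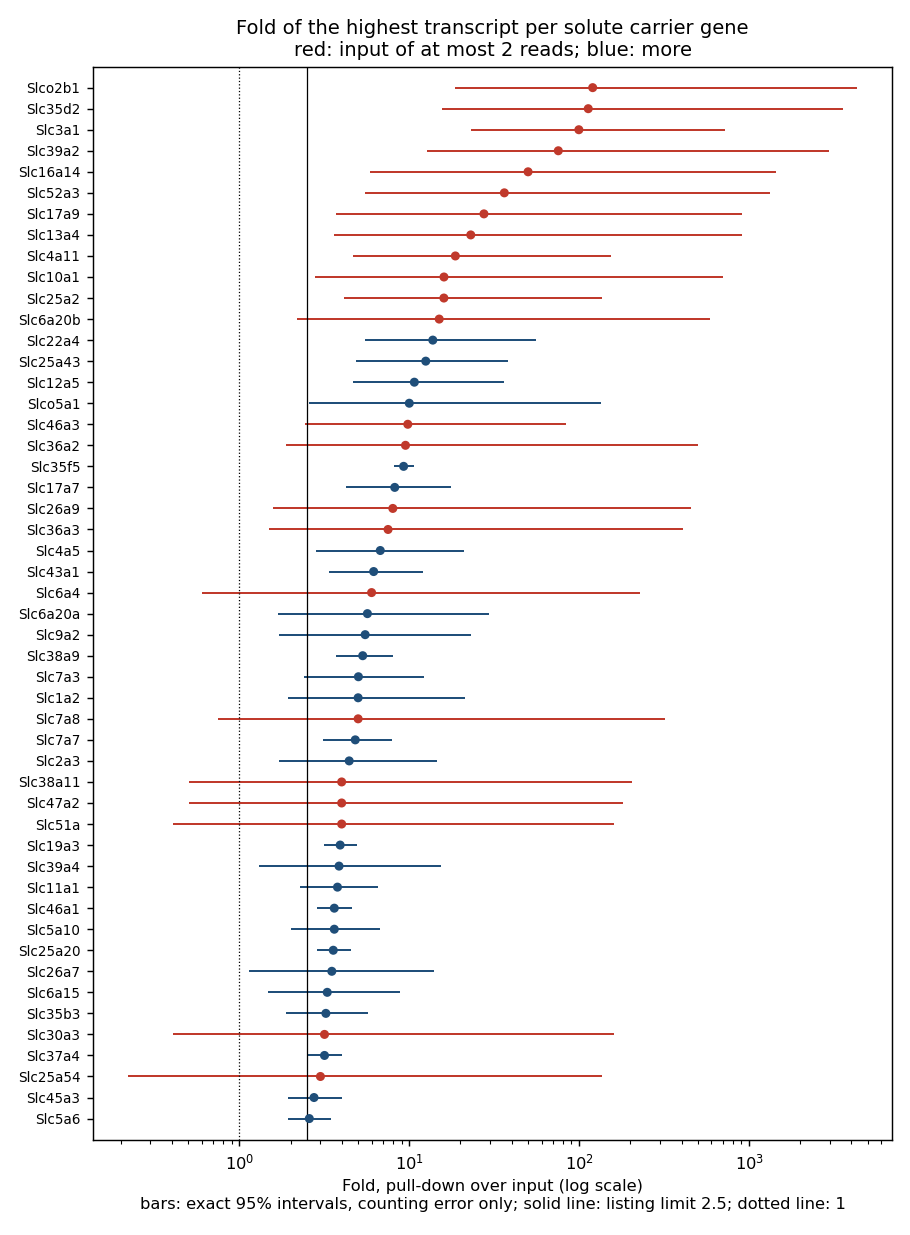
Fold of pull-down over input (horizontal, log scale) for the transcript with the highest fold of each of the 50 solute carrier genes on the mRNA list, with exact 95% intervals as bars (counting error only). Genes with at most 2 input reads (red) fill the top and have wide intervals, and for 7 genes the interval includes 1.

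The promoter-associated ncRNAs are transcripts of the NONCODE catalogue that the authors listed under a gene. Their RPKM values have other denominators than the mRNA values and are not compared with them. At solute carrier genes their median fold was 4.00, against 5.12 for all 2432 entries, and only 2 of 47 (4.26%) reached a fold of 10, against 25.0% of all. An interval above 1 was found for 31 of the 47 (66.0%), against 77.4% of all, and above 2.5 for 8 (17.0%), against 42.1%. For 12 of them (25.5%, against 18.8% of all) the input was listed as exactly 1 RPKM, which is not a whole number of reads, and no interval was computed. Entries without an interval stay in the shares above, where they count as not above 1 or 2.5. Slc22a29, an organic anion carrier, contributed 13 entries that span about the same stretch of chromosome 19 with folds of 4 to 7.5, and these are 1 locus. Without it the median fold was 3.44, and without the entries with an input of exactly 1 it was 5.48. Neither limit was applied to the 5.12 of all entries.

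The highest fold was at Slc2a8, an intracellular glucose carrier, where NONMMUT036751 (chr2:32837006-32837603, mm9) had 0.347 RPKM in the input and 7.722 in the pull-down (22.25, interval 3.68 to 918). A second, overlapping transcript there had 0.884 and 6.611 RPKM (7.48, 3.56 to 19). Slc25a14, a mitochondrial carrier of the uncoupling protein family, followed with 0.461 and 5.958 RPKM (12.92, 6.10 to 32.7). At Slc30a4, a zinc exporter, the values were 0.155 and 1.438 RPKM (9.28, 5.19 to 18.4). These 3 genes held the highest folds, and the first rested on 2 input reads.

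By level the order was different. The ncRNA listed at Slc25a11, the mitochondrial oxoglutarate carrier, was the most abundant, with 36.1 RPKM in the input and 90.117 in the pull-down, at the lowest fold on the list (2.50, interval 1.90 to 3.32), and its accession belongs to the neighbouring gene Rnf167. At Slc33a1, the acetyl-CoA carrier of the endoplasmic reticulum, the values were 18.077 and 70.789 RPKM (3.92, 3.30 to 4.68). At Slc35e2 they were 4.554 and 14.777 RPKM (3.24, 1.91 to 5.87), at Slc38a10 4.887 and 13.633 (2.79, 1.98 to 4.01) and at Slc39a13, a zinc carrier, 3.97 and 11.384 (2.87, 1.74 to 4.98). Levels of these ncRNAs exceeded those at Slc2a8, while their folds were smaller.

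Slc3a2, the heavy chain that the large neutral amino acid carriers need at the cell surface, combined level and fold, with 1.718 and 8.874 RPKM (5.17, interval 3.01 to 9.51). Other entries had few input reads: Slc38a6 and the iron exporter Slc40a1 had folds of 5.48 (1.96 to 21.3 and 1.64 to 28.9), Slc7a4 3.03 (1.60 to 6.28) and the iron importer of mitochondria Slc25a37 2.88 (1.48 to 6.13). For Slc13a2os and the creatine carrier Slc6a8 the intervals included 1. Slc25a15, Slc4a4, Slc16a11, Slc12a2 and Slc39a2 have no interval, and their folds of 2.62 to 4.45 depend on the listed input of 1. In all, 17 of the 24 genes (70.8%) had an interval above 1 and 6 (25.0%) above 2.5, against 76.0% and 42.5% of all genes on the list. Genes without an interval, 5 of the 24 and 326 of all 1624, stay in these shares and lower them.

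**Figure D4:**
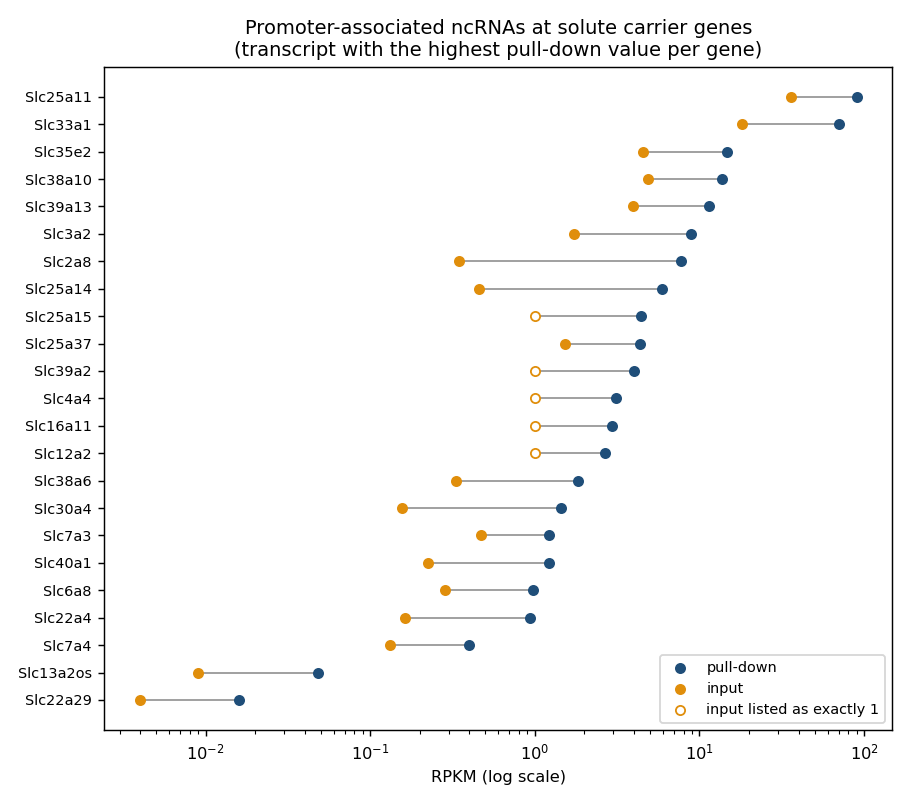
Input and pull-down RPKM (horizontal, log scale) of the ncRNA with the highest pull-down level at each of 23 of the 24 solute carrier genes, joined by a line whose length shows the fold. Open circles mark inputs listed as exactly 1, and Slc25a11 and Slc33a1 lie farthest to the right.

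The ChIRP-seq peaks near solute carriers had a median score of 34.0, against 34.3 for all 4286 peaks, and 14 of 79 (17.7%) had a score of at least 40, against 24.8% of all. The score is the authors' peak score, whose lowest listed value was 30.01. Peaks in introns made up 46 of the 79 (58.2%), against 42.6% of all, intergenic peaks 24 (30.4%), against 40.0%, and promoter peaks 4 (5.06%), against 9.45%. Exons held another 4 (5.06%), against 3.76%, and a 5′ UTR 1 (1.27%), against 0.397%. Annotated to a transcript of the carrier itself, its promoter included, were 45 (57%), against 45.2% for all peaks and their nearest genes. Another 10 (12.7%) were annotated to another gene, against 14.8%. Within 10 kb of the transcription start lay 37 (46.8%), against 42.6%. Of the same 79 peaks, 21 (26.6%) fell on an annotated repeat, against 23.6%. The 5 chromosomes richest in peaks (6, 8, 11, 16 and 19) held 48 (60.8%), against 62.2% of all peaks, and chromosome 11 alone 15 (19%), against 14.6%. "Nearest" is the deposited annotation and names no regulated gene.

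Slc6a6, the taurine carrier, had the highest score and the most peaks, 7 over 97.5 kb of chromosome 6. The top peak (chr6:91597405-91598586, mm9, score 78.93) was intergenic, 36066 bases before the start site, and another with a score of 31.23 lay 41967 bases before it. The other 5, with scores of 33.08 to 37.07, were in introns 1, 2 and 6 of the gene. Slc12a8, of the cation-chloride cotransporter family, had 5 peaks over 105 kb of chromosome 16. Those in its own introns 1 and 4 scored 45.61, 47.17 and 31.87, while the highest (47.29) lay in an intron of Zfp148. At least 5 peaks were found for these 2 of 59 genes (3.39%), against 1.07% of all genes nearest to peaks, while at least 2 were found for 9 (15.3%), against 22.6%. Slc25a39, needed for glutathione import into mitochondria, had 3 peaks within 7.58 kb, at 6082 bases (47.58) and 1213 bases (36.04) before its start and in its intron 1 (39.09). The sodium-proton exchanger Slc9a8 and the lactate carrier Slc16a1 also had 3 each, and Slc15a5, Slc38a7, Slc39a11 and Slc7a6 had 2. Single peaks of high score were those of Slc25a25, an ATP-magnesium and phosphate carrier (48.21, 12888 bases upstream), Slc27a1, a fatty acid transport protein (47.4, intron 3), Slc25a45 (43.76, intron 4) and the citrate carrier Slc13a2 (42.07, 2095 bases upstream).

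**Figure D5:**
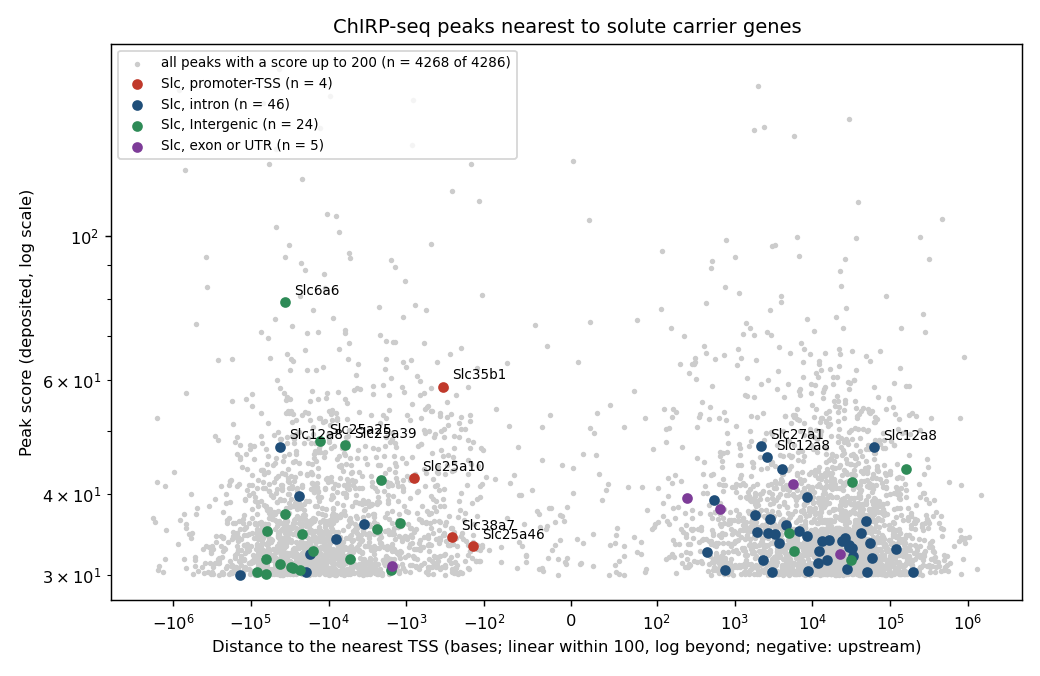
Deposited score (vertical, log scale) against distance to the nearest start site (horizontal, in bases, log scale beyond 100) for ChIRP-seq peaks, with all peaks up to a score of 200 in grey and the 79 solute carrier peaks coloured by class. Slc6a6 (78.93) and the promoter peak of Slc35b1 (58.52) are the highest among the solute carriers.

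A promoter peak was listed for 4 members. Slc35b1, a nucleotide carrier of the endoplasmic reticulum, had the strongest (chr11:95245349-95246454, mm9, score 58.52, 335 bases before the start). Slc25a10, the dicarboxylate carrier of mitochondria, had 42.27 at 809 bases before the start. Slc38a7, a lysosomal glutamine carrier, had 34.33 at 260 bases before the start and a second peak of 37.94 in its 5′ UTR, both on chromosome 8. Slc25a46, a carrier-like protein of the outer mitochondrial membrane, had 33.2 at 140 bases before the start. Also close to a start, though classed as an exon, was the peak over the first exon of the nucleoside carrier Slc29a2 (39.47, 244 bases after the start). None of these 5 genes was on the mRNA or the ncRNA list, which hold 6.71% and 8.84% of all genes with a peak. Peaks classed as intron also lay close after the start at Slc6a13 (435 bases), Slc25a39 (549) and Slc25a11 (744), and Slc25a11 is on the ncRNA list.

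Promoter sequences, from 250 bases before to 50 bases after the start, were taken from RefSeq (GRCm38.p6) for 91 of the 122 genes, 126 windows in all. They were searched on both strands for the DNA letters of the Mirlet7d seed, GAGGTAG, and their complement, CTACCTC. The letters occurred in 9 of the 126 windows (7.14%), at 7 separate sites, against 3.85% of all 32851 windows. The genes were Slc35b1, Slc35b3, Slc36a3, Slc3a1, Slc4a5, Slc7a6 and Slc7a7, or 7.69% of the 91 matched members, against 4.44% of all genes. Of these, 5 were on the mRNA list (13.5% of its 37 matched members) and 3 on the ChIRP-seq list (6.52% of its 46). The members' windows had a higher median share of G and C bases (58.0%, against 52.7%), and its part in these shares was not tested. On the ncRNA list 0 of 20 windows had them. A match of these letters is a description of sequence and shows no binding. The windows of 4 members are given with the seed letters in capitals where present. Slc35b1 (chr11:95384606-95384905, plus strand) and Slc38a7 (chr8:95853442-95853741, minus strand) are shown for their promoter peaks, Slc36a3 (chr11:55151659-55151958, minus strand) for its place on the mRNA and ChIRP-seq lists, and Slc39a2 (chr14:51893360-51893659, plus strand) for its place on all 3. In Slc35b1 the seed letters begin at the start site itself, in Slc36a3 they begin 26 bases before it, and in Slc38a7 and Slc39a2 they do not occur in the window.
Slc35b1: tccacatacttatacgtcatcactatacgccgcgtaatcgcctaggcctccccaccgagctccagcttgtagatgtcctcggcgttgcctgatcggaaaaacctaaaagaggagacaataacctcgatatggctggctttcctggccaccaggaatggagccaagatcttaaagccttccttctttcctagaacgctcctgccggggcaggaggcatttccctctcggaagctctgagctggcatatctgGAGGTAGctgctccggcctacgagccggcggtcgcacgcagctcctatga
Slc38a7: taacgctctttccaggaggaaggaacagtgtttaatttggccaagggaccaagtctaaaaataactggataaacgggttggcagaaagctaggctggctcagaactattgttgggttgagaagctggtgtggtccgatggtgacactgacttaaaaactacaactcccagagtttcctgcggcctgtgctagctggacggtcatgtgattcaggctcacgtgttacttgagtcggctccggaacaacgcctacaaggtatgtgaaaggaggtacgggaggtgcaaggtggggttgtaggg
Slc36a3: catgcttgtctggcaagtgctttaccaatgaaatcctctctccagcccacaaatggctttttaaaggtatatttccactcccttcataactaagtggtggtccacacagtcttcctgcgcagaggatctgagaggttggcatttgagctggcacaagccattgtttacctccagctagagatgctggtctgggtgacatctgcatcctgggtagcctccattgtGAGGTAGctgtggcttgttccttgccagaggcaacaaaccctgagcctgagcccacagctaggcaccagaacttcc
Slc39a2: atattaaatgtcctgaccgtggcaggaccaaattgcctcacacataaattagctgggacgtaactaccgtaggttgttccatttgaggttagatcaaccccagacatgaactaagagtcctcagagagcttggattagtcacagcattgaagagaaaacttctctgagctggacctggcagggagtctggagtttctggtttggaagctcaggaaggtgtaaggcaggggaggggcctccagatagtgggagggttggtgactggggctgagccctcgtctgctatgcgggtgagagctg

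Few solute carriers were on more than 1 list. Slc39a2 alone was on all 3 (0.252% of the 397 genes, against 0.0915% of all). Its ncRNA NONMMUT020764 (chr14:52512564-52515481, mm9) overlaps 2197 bases of the mRNA span, had an input of exactly 1 and a pull-down level of 3.985 RPKM, and rested on 174 pull-down reads. Without a stated strand, reads of the mRNA and of the ncRNA cannot be told apart. The peak (score 34.79) lay on an LTR repeat 1641 bases beyond the mRNA span and 2580 bases from the ncRNA.

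A peak and a promoter-associated ncRNA were both listed for 5 genes (1.26%, against 1.07% of all), which is 8.47% of the 59 genes with a peak and 20.8% of the 24 with an ncRNA, against 8.84% and 17.4% over all genes. At Slc13a2os the peak (41.46) lay inside the ncRNA, in exon 9 of Slc13a2, but that ncRNA rested on 1 input and 8 pull-down reads. At Slc25a11 the peak was 2545 bases away, at Slc39a2 2580, and at Slc35e2 17362, inside another gene (Nadk). Among all 79 peaks, 3 (3.80%) overlapped a pull-down ncRNA, against 3.43% of all peaks, and 11 (13.9%) lay within 10 kb of one, against 12.4%. Another overlap involved an ncRNA that is not on the promoter list: the intron 1 peak of Slc16a1 (chr3:104448961-104449540, mm9, score 35.05) lay within NONMMUT044605, which had 0.072 RPKM in the input and 5.671 in the pull-down, 2 reads against 243 (fold 78.76, interval 13.8 to 3136). Some of the ncRNAs within 10 kb were listed under neighbouring genes. The promoter peak of Slc25a10 was 2120 bases from an ncRNA listed at Mrpl12 (3.784 and 12.868 RPKM), and the intron peak of Slc25a35 was 1828 bases from one listed at Rangrf (0.484 and 3.512 RPKM). Others were outside the promoter list. Both peaks of Slc38a7 lay 8590 and 9603 bases from NONMMUT066852 (2.358 and 12.923 RPKM, fold 5.48, interval 3.47 to 9.15), and those of Slc25a39 nearest to its start lay 6817 and 8634 bases from NONMMUT012140 (1.709 and 5.515 RPKM, fold 3.23, interval 1.41 to 8.61).

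A peak and an mRNA were both listed for Slc35f5, Slc36a3, Slc39a2 and Slc46a1 (1.01%, against 0.816% of all), or 6.78% of the genes with a peak and 8% of those with an mRNA. Over all genes these shares were 6.71% and 14.2%. The share of the mRNA genes that also had a peak was lower for the carriers, but it rests on 4 of 50 genes and was not tested. At Slc36a3 the peak (32.65, intron 5) lay inside the mRNA span, the only 1 of the 79 peaks to overlap an mRNA span (1.27%, against 3.71% of all). At Slc35f5 it lay 1296 bases before the span (30.51) and at Slc46a1 15648 bases away (32.64). The latter peak closes a stretch of 50.3 kb on chromosome 11 that also holds the peaks of Slc13a2os and Slc13a2, so 3 of the 79 peaks and 2 of the genes on more than 1 list share this place. An mRNA and an ncRNA were both listed for Slc22a4, Slc39a2 and Slc7a3 (0.756%, against 0.545% of all). At Slc22a4 they overlap by 696 bases, and the ncRNA had 0.162 and 0.938 RPKM (5.79, interval 1.39 to 51.6). At Slc7a3 the ncRNA lies wholly in the mRNA span and had 0.473 and 1.222 RPKM (2.58, 1.27 to 5.79).

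Of 14 markers of lung epithelium, 6 were on a list, against 21.7% of all curated genes: Lamp3 among the mRNAs (fold 3.30), and Sftpb (score 117), Etv5 (89.4), Nkx2-1, Krt18 and Cdh1 nearest to peaks. Slc34a2, the sodium-phosphate carrier that marks alveolar type II cells, was on none of the lists, which hold enriched entries only and cannot show that a gene is absent. Markers of other cell types were listed too. They were Kdr (mRNA fold 8.5) and Pecam1 (score 47.9) of endothelium and Cd68 of leukocytes (ncRNA fold 24.5). Col1a1 of fibroblasts (score 38.2) and Scgb1a1 of club cells (score 38.1) were nearest to peaks. Cdh5 of endothelium, Ptprc of leukocytes and Pdgfra of fibroblasts were on none of the lists.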

How the data were processed

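Members and gene groups were chosen with earlier results of these data known. The authors deposited RPKM values of input and pull-down for selected mRNA and ncRNA transcripts, rounded to 3 decimals. Their deposited ratio (fold) column differed from the quotient of both RPKM values by at most 0.005, and this quotient was used here. Peaks carry the authors' deposited score. Coordinates are those of mm9, per the labels. Tools that the submitters' processing notes give for both assays are Bowtie2, FastQC, HOMER, SAMtools and bedtools (version 2.15 for the pull-down), with Trimmomatic and Picard 1.119 added for the pull-down and MACS for ChIRP-seq, and their roles are not stated. Spans include introns, and whether counting used strand is not given in the sources used here.

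Usable values, those with a small rounding error and few reads, were 322 and 76 for mRNA input and pull-down and 3806 and 2294 for ncRNAs. Multiplied by span, 100% of the usable RPKM values of each column fell within 0.15 reads of whole reads. This gave denominators of 23.8 and 42.0 M reads (mRNA input and pull-down) and 9.66 and 15.0 M (ncRNA). Inputs of exactly 1 RPKM, 25.2% of all ncRNA candidates, were left out of this. Exact 95% (Clopper-Pearson) intervals of the fold were computed over all read numbers compatible with rounding, and since 79.6% of the ncRNA input numbers were even, those reads entered as pairs. They cover counting error only, and PCR copies cannot be separated. Recovery was tried on simulated data of independent single reads, which did not include pairs. No test between groups was possible with 1 library each, so lists are described by counts beside the same counts over all entries. ChIRP-seq depth is unknown.

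Names, promoters and the microRNA sequence came from RefSeq (GRCm38.p6), where 2 of 1509, 8 of 1624 and 16 of 3192 names of the mRNA, ncRNA and ChIRP-seq lists found no match. Named genes were those with the 10 highest folds, scores or pull-down levels of each list, those on more than 1 list, with a promoter peak or with at least 2 peaks, and the members of each substrate group. Alternatives changed the fold, score, distance, input, repeat and name rules. Python 3.11.15, pandas 2.3.3 and SciPy 1.17.1 were used. The ChIRP-seq input library and the samples of the PRO-seq, nuclear RNA-seq and small RNA-seq assays were not analysed here. The values of 1 member are not reported here, though it stays in the counts.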

Additional observations from a re-analysis of the deposited data

How the results depend on the processing

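Of 28 alternatives over 9 results, 17 kept the value within 1.5 times the count or within the spread, and 11 moved a count. With a fold of at least 5, the mRNA list kept 31 of 50 genes, the ncRNA list 9 of 24, and mRNA and ncRNA together 1 of 3. Without inputs of at most 0.003 RPKM, 28 mRNA genes were left. Genes nearest to peaks fell from 59 to 12 at a score of at least 40 and to 31 within 10 kb. They fell to 36 inside the carrier's own transcript or promoter and to 27 without chromosomes 6, 8, 11, 16 and 19, both chosen after seeing the data. A peak with an ncRNA was left for 1 gene of 5 at a score of at least 40 and for 1 at an ncRNA fold of at least 5, and a peak with an mRNA for 2 of 4 within 10 kb. Each of these limits removes entries by construction, so for the single lists the share of curated genes is given as well. At a fold of at least 5 the mRNA list held 8.06% of the solute carriers and 2.81% of all genes, and without low inputs 7.30% and 4.12%. For ncRNAs at that fold the shares were 2.27% and 3.36%. For peaks they were 3.02% and 3.52% at a score of at least 40, 7.81% and 5.96% within 10 kb, 9.07% and 6.29% inside the own transcript or promoter, and 6.80% and 5.51% without the 5 chromosomes. Rounding of RPKM can take 3 mRNA genes (Slc47a2, Slc38a11 and Slc25a54) under the limit of 2.5. No paired analysis was possible because each group has 1 library and no result comes from a test.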

Other observations

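Because the mRNA values count reads over whole spans, introns included, other captured transcripts can lie inside them. Of the 50 solute carrier genes on the mRNA list, 8 (16%) had a span that overlaps at least 1 pull-down ncRNA, against 20% of all 1509 genes on that list. Slc38a9, the lysosomal arginine sensor, overlapped 4 ncRNAs, all outside the promoter list, which had 4.295 to 6.263 RPKM in the pull-down. All 4 lie in the stretch of NONMMUT019337, so they are 1 locus and not independent entries. Inputs were 0.531 and 1.165 RPKM for 2 of them and listed as exactly 1 for NONMMUT019338 and NONMMUT019336. The highest fold among them was 10.18 (NONMMUT019339, exact interval 4.48 to 28.5). Slc3a1 overlapped NONMMUT030927, with 1.273 and 6.024 RPKM (4.73, interval 2.01 to 13.6), and the shorter NONMMUT030926, with 0.986 and 13.999 RPKM (14.2, interval 2.30 to 586). Slc46a1 overlapped NONMMUT010915 with 3.896 and 13.159 RPKM (3.38, interval 2.30 to 5.11), close to the fold of its mRNA. Slc1a2 overlapped NONMMUT038825 at a fold of 10.26 with 2 input reads, and Slc35d2 overlapped NONMMUT017976 with an input of exactly 1 and 8.561 RPKM in the pull-down. The part these ncRNAs have in the mRNA folds was not tested.

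The comparison set of other transporters, not members of the solute carrier set, held both well and poorly measured entries. The sodium pump subunit Atp1b1 had 2.258 and 5.88 RPKM on the mRNA list (2.60, interval 2.44 to 2.79) and a peak with a score of 33.5, 59657 bases before its start. Abcb11, the bile salt export pump, had the highest peak score in this set (147), in an intergenic peak 12964 bases before its start. The highest ncRNA fold was at Abcf1, an ABC family member that is not a membrane transporter (147, from 0.05 to 7.355 RPKM). Its interval was wide (25.9 to 5813).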
